A study of Mus musculus with 12 samples.

Results

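Myelinating Schwann cell genes were followed in the tibialis anterior (TA) muscle of mice. They are *Pmp22*, *Mbp*, *Mal*, *Prx*, *Mag*, *Egr2*, *Sox10* and *Ncmap*, a set chosen by name as genes that Schwann cells use to make myelin, and their rows were found by NCBI Gene ID. They are 8 of the 27179 genes counted, and all 8 passed the expression filter that left 15502 genes tested. The muscles came from male wild-type C57BL/6N mice, whose age the labels do not give. Control muscles received 10 μg of the empty plasmid pcDNA3, and *FRAIL1* muscles received 10 μg of a plasmid in which the cytomegalovirus promoter drives full-length *FRAIL1*, a human long non-coding RNA that mice lack. Both plasmids were brought in by electroporation into opposite legs, and poly(A) RNA of whole muscle was sequenced on day 7 from 6 muscles per group. The promoter is not specific to a cell type, the share of cells that took up plasmid is not known, and *FRAIL1* itself is not among the mouse genes counted.

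A motor axon reaches its muscle fibers wrapped in myelin, a stack of Schwann cell membrane in which each cell covers 1 stretch of axon. The transcription factor SOX10 gives Schwann cells their identity and, with EGR2, turns on the genes of myelin proteins and lipids. PMP22 and MBP build the compact sheath, periaxin (the product of *Prx*) ties the outer Schwann cell membrane to the basal lamina, and MAG sits on the inner membrane that faces the axon. The cell bodies of motor neurons lie in the spinal cord, so a muscle sample holds the Schwann cells of its nerve branches and little RNA of the neurons themselves.

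Promoter windows of 2 of these genes are shown because SOX10 and EGR2, which are themselves in the set, are known to act on myelin genes. The windows were read from RefSeq (GRCm38.p6), lie just before an annotated transcript start, and are printed 5′ to 3′ on the strand of the gene. Capitals mark a match to the EGR core GTGGGNG or to the SOX core ACAAAG, in either orientation.
Prx promoter, chr7:27499074-27499304, plus strand: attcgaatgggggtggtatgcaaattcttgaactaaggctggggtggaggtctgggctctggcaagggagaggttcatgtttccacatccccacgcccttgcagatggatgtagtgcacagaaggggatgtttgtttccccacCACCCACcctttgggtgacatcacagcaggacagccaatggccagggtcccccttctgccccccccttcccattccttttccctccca
Mag promoter, chr7:30914923-30915172, minus strand: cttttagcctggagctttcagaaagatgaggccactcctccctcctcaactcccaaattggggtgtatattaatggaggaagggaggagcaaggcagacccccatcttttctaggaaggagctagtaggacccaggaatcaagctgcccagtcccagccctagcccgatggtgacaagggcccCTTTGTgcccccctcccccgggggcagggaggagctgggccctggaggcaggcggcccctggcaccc
In *Prx* the capitals read CACCCAC, the EGR core on the other strand, and end 101 bases before the start of transcription (the printed window stops earlier, where the RefSeq gene begins). In *Mag* they read CTTTGT, the SOX core on the other strand, and end 62 bases before it. The table held 16 windows of 250 bases for 6 of the 8 genes, all but *Mbp* and *Sox10*. The EGR core was found in a window of *Egr2*, *Mag*, *Ncmap* and *Prx*, that is in 4 of 16 windows, and in 28.07% of all 32851 windows. The SOX core ACAAAG was found in 2 of 16 windows, both of *Mag*, against 16.46% of all. Those 2 windows overlap, and the match is the same CTTTGT in both. The variant ACAATG was found in 0 of 16 windows against 10.69% of all. The EGR and SOX cores share no letters in the 16 windows. A match is a description of the letters and not a site of binding. In GRCm38 the *Prx* gene spans 27499305 to 27520041 of chromosome 7 and *Mag* 30899175 to 30914922 of the same chromosome. *Pmp22* spans 63128982 to 63159547 of chromosome 11, *Mal* 127633226 to 127656695 of chromosome 2, *Ncmap* 135369576 to 135398240 of chromosome 4, *Egr2* 67534469 to 67542188 of chromosome 10 and *Sox10* 79154913 to 79164490 of chromosome 15.

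Total counts ranged from 45018389 to 59309210 in Control muscles and from 44848322 to 60527385 in *FRAIL1* muscles. Levels are given as CPM, the reads of a gene relative to library size after TMM scaling. Fold changes, their standard errors (SE) and p-values come from the quasi-likelihood test in edgeR, fitted to all 15502 genes, with Benjamini-Hochberg adjustment and a threshold of 0.05. A negative log2 fold change is a lower level in *FRAIL1* muscles. The reported fit had no block for the mouse, so it did not use the pairing of legs. For counts of mice and for fits with the mouse as a block, muscles that share a number were taken as 2 legs of 1 mouse. The labels, which number the muscles 1 to 6 in each group, do not state this. *FRAIL1* muscle 5 stood apart from the rest, at 59.5 on the first principal component with the next *FRAIL1* muscle at 25.8. Values of the 8 genes are therefore also given without *FRAIL1* muscle 5. At the other end *FRAIL1* muscle 3, at -5.92, lay nearest to the Control muscles, of which muscle 4 was the highest at -11.0. Of all genes 974 were called as reported, 2110 without *FRAIL1* muscle 3 and 969 without *FRAIL1* muscle 5. The tissue carried the mRNAs of mature muscle fibers, with *Ckm* at 7127 CPM or more in every muscle. *Myh4*, the myosin gene of fast type IIb fibers, was at 22444 CPM or more. By the study's methods the 6 muscles of a group came from 6 mice.

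All 8 mRNAs were read in all 12 muscles. The estimates for *FRAIL1* against Control muscles lay below 0 for every gene but *Egr2*. No difference passed the test of the reported fit, which had no block for the mouse. None of the 8 genes passed the adjusted threshold, against 6.28% of all genes called in either direction, 1.85% lower and 4.43% higher. One gene, *Prx*, had an unadjusted p-value under 0.05, where 27.7% of all genes did. With the mouse as a block 1 of the 8, *Prx*, passed the adjusted threshold in edgeR, as did 14.1% of all genes (6.62% lower). DESeq2 called 1 of the 8, again *Prx*, where it called 15% of the 14890 genes to which it gave an adjusted p (6.39% lower), and limma voom called 0 of the 8 against 11.3% of all genes. The log2 fold change was below 0 in 7 of 8 genes, with a median over the set of -0.26, against 48.4% of all genes below 0 and a median over all genes of 0.0096. In every member the ranges of the Control and *FRAIL1* muscles overlapped, as they did in all but 4.88% of genes. The summed level of the 8 mRNAs was 59.9 to 94.2 CPM in Control and 54.4 to 76.8 CPM in *FRAIL1* muscles. In whole muscle, fewer Schwann cells and less of these mRNAs per Schwann cell cannot be told apart.

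**Figure D1:**
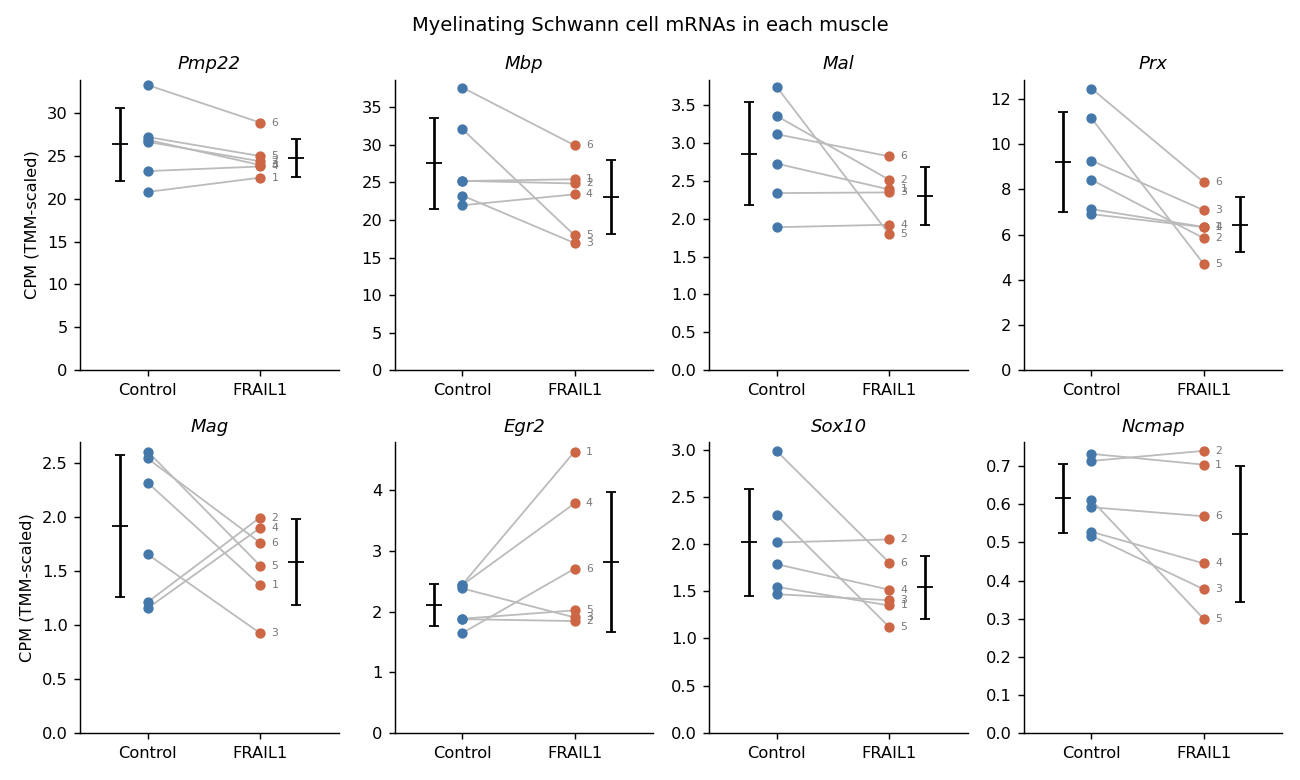
CPM of the 8 genes (y axes, each from 0) in 6 Control (blue) and 6 *FRAIL1* (orange) muscles, with lines joining muscles of the same number, the number beside each *FRAIL1* point, and black bars for the group mean ± SD. All 6 lines of *Prx* go down, while *Egr2* has its 2 highest values in *FRAIL1* muscles 1 and 4.

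*Prx* had the lowest log2 fold change of the set. Periaxin, its product, is a scaffold protein of myelinating Schwann cells, and its loss causes a demyelinating neuropathy. Control muscles held a lowest, median and highest value of 6.90, 8.85 and 12.5 CPM, and *FRAIL1* muscles of 4.69, 6.33 and 8.31 CPM. The 2 highest values were those of Control muscles 5 and 6, the lowest was that of *FRAIL1* muscle 5, and the *FRAIL1* muscle was the lower in 6 of 6 mice, as in 11.7% of all genes. The group means were 9.22 ± 2.22 and 6.43 ± 1.21 CPM (SD, n = 6 each), a log2 fold change of -0.52 (SE 0.159, 95% interval -0.86 to -0.18), with an adjusted p of 0.0606 by edgeR. With the mouse as a block the log2 fold change was -0.51 and the adjusted p 0.0313, past the threshold together with 14.1% of all genes (6.62% of all genes were lower with the block). *Prx* was also called without *FRAIL1* muscle 3 and without *FRAIL1* muscle 6 (adjusted p = 0.0485 by edgeR in each), and was not called without *FRAIL1* muscle 5, where its log2 fold change was -0.44. *Gm15541*, an antisense gene, covers 5.38% of the exon sequence of *Prx*, and the strand setting of the read counting is not known.

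The genes of the compact sheath were the most abundant of the set. *Pmp22* encodes a tetraspan protein of compact myelin whose duplication causes the commonest inherited demyelinating neuropathy, and other cells, fibroblasts among them, make it too. Its level was 20.8, 26.7 and 33.3 CPM (lowest, median and highest) in Control and 22.5, 24.2 and 28.9 CPM in *FRAIL1* muscles. The *FRAIL1* range lay inside the Control range, and the log2 fold change was -0.09 (SE 0.0958, 95% interval -0.29 to 0.11), or -0.013 without Control muscle 6. *Mbp* encodes myelin basic protein, which glues the cytoplasmic faces of the membrane together. Its level was 21.97, 25.2 and 37.6 CPM in Control and 16.9, 24.1 and 29.9 CPM in *FRAIL1* muscles. The medians were close, and the groups differed mostly at their ends: Control muscles 5 and 6 were the 2 highest and *FRAIL1* muscles 3 and 5 the 2 lowest. The log2 fold change was -0.26 (SE 0.159, 95% interval -0.60 to 0.09) with an adjusted p of 0.316 by edgeR, and -0.15 without Control muscle 6.

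*Mal* encodes a proteolipid of myelin that sorts lipids and proteins to the sheath, and T cells and epithelia make it too. It had 1.89, 2.92 and 3.74 CPM in Control and 1.79, 2.37 and 2.82 CPM in *FRAIL1* muscles. In 4 of 6 mice the *FRAIL1* muscle held less of it. Its log2 fold change was -0.31 (SE 0.172, 95% interval -0.68 to 0.05). *Ncmap* encodes a small glycoprotein of the noncompact myelin of peripheral nerve, and was the scarcest gene of the set at 16 to 43 reads per muscle. It had 0.517, 0.602 and 0.733 CPM in Control and 0.299, 0.507 and 0.740 CPM in *FRAIL1* muscles. The *FRAIL1* muscles held both the lowest and the highest value of all 12. Its log2 fold change of -0.24 (SE 0.250, 95% interval -0.77 to 0.29) leaves changes of either sign within the interval, and was -0.12 without *FRAIL1* muscle 5 and -0.16 without *FRAIL1* muscle 3.

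*Mag* encodes the myelin-associated glycoprotein, a lectin that binds axonal gangliosides. It had 1.16, 1.99 and 2.61 CPM in Control and 0.925, 1.66 and 1.997 CPM in *FRAIL1* muscles. Control muscles 1, 5 and 6 were the 3 highest, all at 2.32 CPM or more, and the other Control muscles lay among the *FRAIL1* values. The log2 fold change was -0.27 (SE 0.243, 95% interval -0.79 to 0.25) with an adjusted p of 0.494 by edgeR, and it was lower in 4 of 6 mice. It was -0.15 without *FRAIL1* muscle 3, -0.16 without Control muscle 5 and -0.17 without Control muscle 6.

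The 2 transcription factors of the set had log2 fold changes of opposite sign. *Sox10* is expressed through the whole Schwann cell lineage, with or without myelin. It had 1.47, 1.90 and 2.98 CPM in Control and 1.12, 1.46 and 2.05 CPM in *FRAIL1* muscles. In 5 of 6 mice the *FRAIL1* muscle held less of it. Its log2 fold change was -0.39 (SE 0.199, 95% interval -0.81 to 0.04, adjusted p = 0.221 by edgeR), and -0.24 without Control muscle 6. *Egr2*, also called Krox20, drives Schwann cells into myelination, and is an immediate early gene that other cells, T cells and macrophages among them, turn on too. It had 1.65, 2.13 and 2.44 CPM in Control and 1.84, 2.36 and 4.64 CPM in *FRAIL1* muscles. *FRAIL1* muscles 1, 4 and 6, with 4.64, 3.78 and 2.71 CPM, lay above every Control muscle, and *FRAIL1* muscles 2, 3 and 5 lay within the Control range. The log2 fold change was 0.41 (SE 0.230, 95% interval -0.08 to 0.90, adjusted p = 0.257 by edgeR), and 0.21 without *FRAIL1* muscle 1. The difference between *Egr2* and the other genes was not tested.

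**Figure D2:**
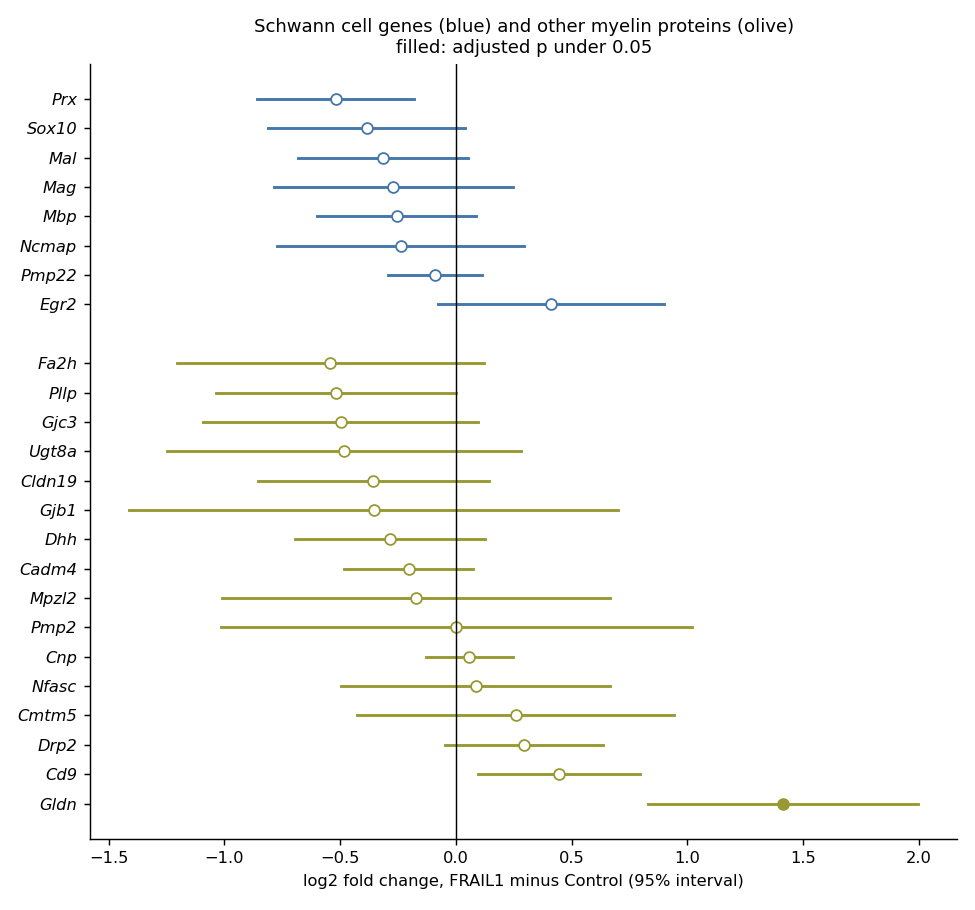
Log2 fold change of *FRAIL1* against Control muscles (x axis) with its 95% interval (lines) for the 8 genes (blue) and 16 other genes of the myelin sheath and node (olive), filled where the adjusted p was under 0.05. The interval of *Prx* ends at -0.18, those of the other 7 members cross 0, and *Gldn* is filled at 1.41.

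Per kilobase of exon the order of levels in Control muscles was *Pmp22* (11.2 CPM per kb), *Mbp* (3.26), *Prx* (1.65), *Mal* (1.03), *Sox10* (0.661), *Egr2* (0.621), *Mag* (0.471) and *Ncmap* (0.277). *Pmp22* and *Mbp*, and *Mbp* and *Prx*, did not overlap over the 6 muscles, while each later pair of neighbours did. In *FRAIL1* muscles *Egr2* (0.828 CPM per kb) came directly after *Prx* and ahead of *Mal* (0.827), with overlapping ranges, and the order was otherwise the same. Exon lengths were those of all annotated transcripts together, which places a gene too low where some of its exons are not used in muscle.

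The members differed between muscles of the same group in a largely shared way. Control muscle 6 had the highest Control value in 4 of 8 genes and Control muscle 4 the lowest in 4. *FRAIL1* muscle 6 had the highest *FRAIL1* value in 4 of 8 genes and lay above its group mean in all 8, and *FRAIL1* muscle 5 had the lowest in 4. Over the 12 muscles, after each group mean was taken off the log2 CPM, 20 of the 21 pairs of members without *Egr2* had a correlation above 0, with a median Pearson r of 0.56. *Mbp* and *Sox10* (r = 0.78) and *Pmp22* and *Prx* (r = 0.76) were the closest pairs. *Egr2* stood outside this pattern, with 5 of its 7 correlations below 0 and a range from -0.43 to 0.26. These r describe 12 muscles that share libraries and scaling, and the genes with few reads add counting error to them. Pairs of other genes were not compared, so the pattern was not shown to be particular to this set.

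**Figure D3:**
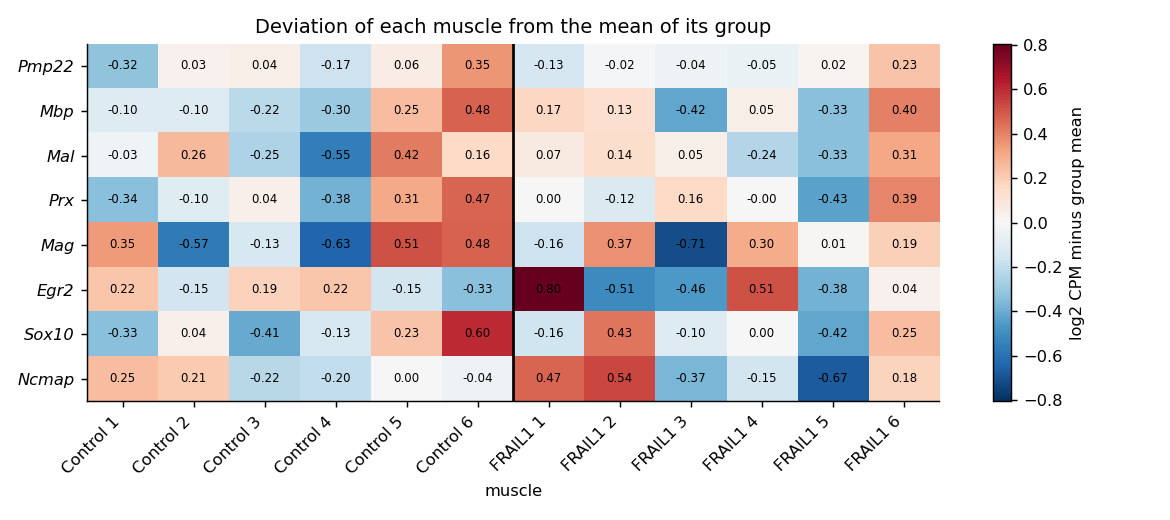
Log2 CPM of each muscle minus the mean of its group (colour and printed value) for the 8 genes (rows) in 6 Control and 6 *FRAIL1* muscles (columns). The column of *FRAIL1* muscle 6 is above 0 in all rows, that of Control muscle 4 is above 0 in the *Egr2* row only, and *Egr2* reaches 0.80 in *FRAIL1* muscle 1.

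Among 13003 other genes with a mean of at least 1 CPM, the 10 whose deviations were most like the mean of the members, by Pearson's r over the 12 muscles, were *Gm2830* (0.89), *Pex16* (0.87), *Mapk8ip2* (0.87), *Map6* (0.86), *Rtl5* (0.86), *Naxe* (0.86), *Syp* (0.86), *Ndrg1* (0.85), *Snx33* (0.85) and the gene with ID 100628626, which was not matched to a symbol (0.85). *Ndrg1* is itself a gene of inherited demyelinating neuropathy. *Cldn19*, a tight junction protein of Schwann cells, ranked 80 with 0.77, and *Nefl*, a neurofilament subunit of the axon, ranked 225 with 0.69. *S100b*, a Schwann cell marker, ranked 261 with 0.68, the axonal gene *Stmn2* ranked 574 with 0.60, and *Erbb3* had an r of -0.23. The r and ranks are a description over 12 muscles.

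Of 149 other genes tested in 20 lists around the nerve and muscle, 15 passed the threshold, 13 higher and 2 lower in *FRAIL1* muscles. Over all genes edgeR called 6.28% (4.43% higher and 1.85% lower), or 14.1% with the block, DESeq2 15% and limma voom 11.3%. An unadjusted p under 0.05 was found in 27.7% of all genes. The counts of each list from here on are to be read beside these shares. The 18 other genes of the myelin sheath and node had a median log2 fold change of -0.20, with 11 below 0, and 1 of them was called. That was *Gldn*, which encodes gliomedin, the Schwann cell ligand that gathers sodium channels at nodes of Ranvier. It rose from 0.814, 0.988 and 1.24 CPM (lowest, median and highest) in Control to 1.40, 2.09 and 5.03 CPM in *FRAIL1* muscles. The groups did not overlap, and the log2 fold change was 1.41 (adjusted p = 0.0124 by edgeR), or 1.11 without *FRAIL1* muscle 5. The tetraspanin *Cd9* was at 0.45, not past the threshold. DESeq2 called 3 of the 18 genes and limma voom 1.

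Among 17 tested regulators of myelination the median log2 fold change was -0.0041, and 2 genes rose. *Erbb2*, the receptor subunit through which axonal neuregulin drives myelination and which muscle fibers also carry, rose from 5.28, 5.92 and 6.33 CPM to 7.69, 9.19 and 13.9 CPM without overlap of the groups (log2 fold change 0.76, adjusted p = 0.00391 by edgeR). Its partner *Erbb3*, the neuregulin-binding subunit, had a log2 fold change of 0.44 that missed the threshold at an adjusted p of 0.0531 by edgeR, and that passed it without Control muscle 2 or *FRAIL1* muscle 2 or 3. *Nab2*, the corepressor and coactivator that binds EGR2, rose by a log2 fold change of 0.39 (adjusted p = 0.0470 by edgeR), a call that in fits leaving out 1 muscle was kept without *FRAIL1* muscle 2 or 3 only. Without *FRAIL1* muscle 5 its value was 0.32. *Pou3f1*, the factor of the promyelinating stage, was at 0.03, and *Itgb4*, the laminin receptor of the outer Schwann cell membrane, at -0.30. The ligand gene *Nrg1* and *Pou3f2* had too few reads to be tested.

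None of 9 further genes of demyelinating neuropathy passed edgeR's threshold, with 2 at an unadjusted p under 0.05 and 1 called by DESeq2, and their median log2 fold change was -0.09. *Gdap1*, a mitochondrial outer membrane protein gene, was lower in 6 of 6 mice, with a log2 fold change of -0.57 and an adjusted p of 0.0547 by edgeR, or 0.0264 with the mouse as a block, and it was also called without *FRAIL1* muscle 2, 3 or 5. *Fig4* was at -0.22 and *Litaf* at 0.30. Of 14 genes of sterol metabolism, which supply the cholesterol of myelin and of every other membrane, 0 passed in edgeR, with 5 at an unadjusted p under 0.05, 2 called by DESeq2 and a median of -0.15. *Insig1*, which restrains sterol synthesis, had a log2 fold change of -0.38 and was past the threshold with the block (adjusted p = 0.0302 by edgeR), while *Mvd* was at 0.29. *Insig1* was also called without *FRAIL1* muscle 3 or 5, and *Mvd* without *FRAIL1* muscle 2.

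**Figure D4:**
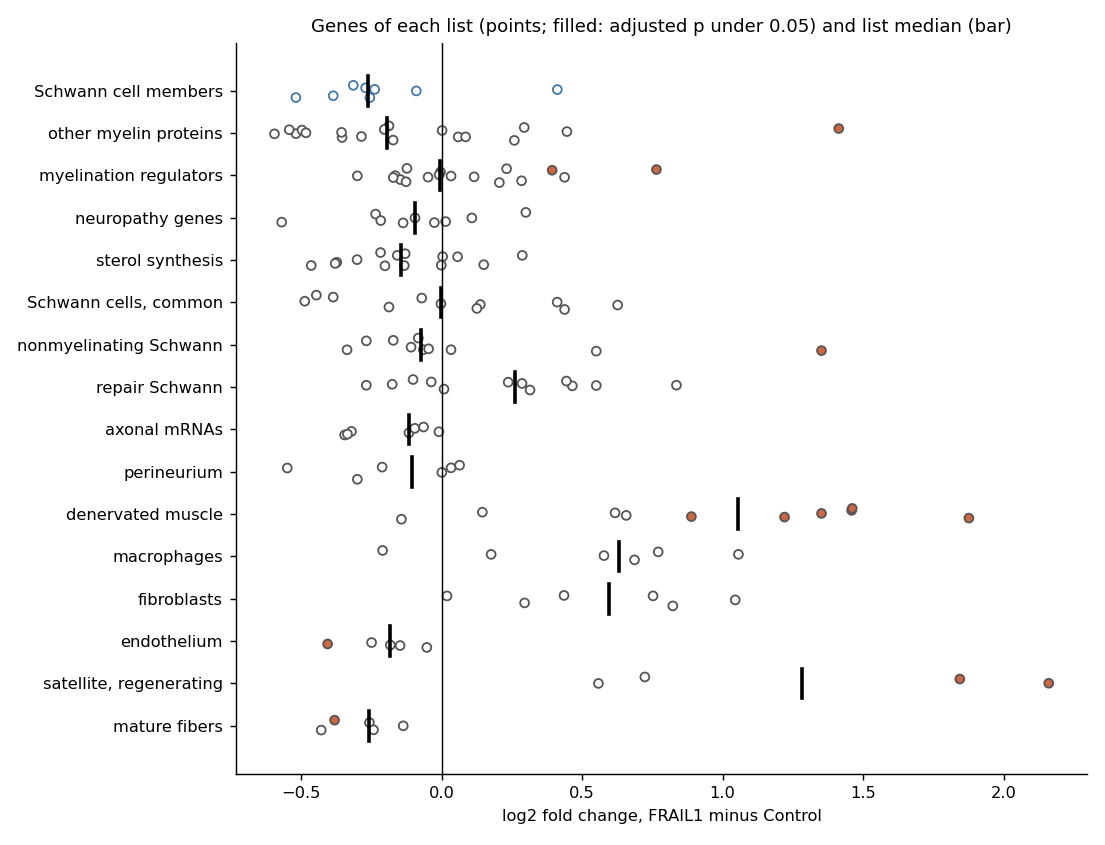
Log2 fold change of *FRAIL1* against Control muscles (x axis) for each tested gene (points, filled where the adjusted p was under 0.05) of the 8 members and 15 of the other lists (rows), with the median of each list as a bar. The members' median is -0.26, next to -0.20 for other myelin proteins, while that of denervated muscle is 1.05.

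Markers of other Schwann cell states and of other cells moved beside these values, and their part in them was not tested. Of 11 genes shared by all Schwann cells, a list that includes the member *Sox10*, 0 passed in edgeR. Of the 11, 3 had an unadjusted p under 0.05, DESeq2 called 3, and the median log2 fold change was -0.0023. *S100b* was at -0.07, *Matn2* at 0.63 and *Art3*, which muscle fibers also make, at -0.45. *Art3* was read at 79.2 CPM or more in every muscle. *Matn2* and *Art3* were past the threshold with the block (adjusted p = 0.0267 and 0.0314 by edgeR), and in single fits without *FRAIL1* muscle 2 or 3 for *Matn2* and without *FRAIL1* muscle 3 or 5 for *Art3*. Of 10 genes of nonmyelinating Schwann cells 1 rose, *Ncam1*, a cell adhesion molecule that denervated muscle fibers also make, from 13.9 to 18.2 CPM in Control to 30.5 to 66.5 CPM in *FRAIL1* muscles (log2 fold change 1.35, adjusted p = 0.00128 by edgeR). The other 9 included *Gfap* at -0.27 and the neurotrophin receptor *Ngfr* at 0.55, which had an adjusted p of 0.0509 by edgeR, or 0.0415 with the block, and which passed without *FRAIL1* muscle 1 or 2. Of 12 tested genes of repair Schwann cells 0 passed in edgeR (3 had an unadjusted p under 0.05, and DESeq2 called 3), with 8 above 0 and a median of 0.26, or 0.13 without *FRAIL1* muscle 6: *Gdnf* was at 0.84, *Cdh2* at 0.47 (adjusted p = 0.0443 with the block by edgeR, and called without *FRAIL1* muscle 3) and *Jun*, the main regulator of that state, at -0.04. *Jun* was read at 106 CPM or more in every muscle, beside 2.98 CPM or less for *Sox10*. Which cells made it cannot be told from whole muscle. With the block 3 of the 12 repair genes were past the threshold, all higher: *Cdh2*, *Ngfr*, which both lists hold, and *Atf3*, a transcription factor gene of the response to nerve injury. *Atf3* was at 0.44 and higher in 6 of 6 mice, with an adjusted p of 0.377 by edgeR, or 0.0330 with the block.

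The mRNAs of axons gave 0 calls in edgeR, DESeq2 and limma voom, and 0 of them had an unadjusted p under 0.05. All 7 tested had a log2 fold change below 0, with a median of -0.12 (0.0392 without *FRAIL1* muscle 3) and values of -0.34 for *Sncg*, -0.32 for *Stmn2* and -0.35 for *Prph*, and their summed level was 13.1 to 25.2 CPM in Control and 11.9 to 21.5 CPM in *FRAIL1* muscles. Of 6 perineurial genes 0 passed in edgeR or DESeq2 and 1 had an unadjusted p under 0.05 (*Tenm2* at -0.55, beside *Cldn1* at -0.21). Of 6 markers of oligodendrocytes, which also make *Mbp*, *Mag*, *Mal* and *Sox10*, *Olig2* and *Opalin* had too few reads to test. The other 4 gave 0 calls in edgeR, DESeq2 and limma voom, with 0 at an unadjusted p under 0.05. *Mobp* was read at 1.096 to 2.35 CPM in Control and 0.548 to 1.88 CPM in *FRAIL1* muscles, while *Mog* was at 0.413 CPM or less in every muscle, *Hapln2* at 0.490 CPM or less and *Ermn* at 0.617 CPM or less. Melanocytes, which make *Sox10*, had *Tyr* at 0 reads in all 12 muscles and *Pmel* at 0.376 CPM or less.

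The genes that muscle fibers turn on when nerve input is lost rose in 6 of 10 cases, with a median log2 fold change of 1.05. They were the acetylcholine receptor subunit genes *Chrna1* (1.46), *Chrng* (1.88) and *Chrnd* (1.22), *Myog* (1.46), *Runx1* (0.89) and *Ncam1*. Their adjusted p-values by edgeR ran from 0.000339 for *Chrna1* to 0.0277 for *Runx1*, whose call was lost with the block (adjusted p = 0.0678 by edgeR) and without Control muscle 2, 5 or 6 or *FRAIL1* muscle 5 (log2 fold change 0.78 without the last). The summed level of the 10 genes was 95.3 to 142 CPM in Control and 203 to 353 CPM in *FRAIL1* muscles, so these groups did not overlap while those of the 8 myelin genes did. Developmental myosin genes rose as well, *Myh3* by 2.16 (1.69 without *FRAIL1* muscle 5) and *Myh8* by 1.84 (1.33 without it, with the call lost without Control muscle 2 or 3), while the satellite cell gene *Pax7* was at 0.56 (adjusted p = 0.0345 with the block by edgeR).

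Of the other cells of muscle, 6 macrophage genes had a median log2 fold change of 0.63 and 6 fibroblast genes of 0.59 (0.40 without *FRAIL1* muscle 5), with 0 called in each list by edgeR, 4 of each at an unadjusted p under 0.05 and 3 of each called by DESeq2, and *FRAIL1* muscle 5 was the highest in *Col1a1* and *Col3a1*. *Adgre1* was at 0.69, *Cd68* at 1.06, *Csf1r* at 0.58, *Col1a1* at 1.04, *Col3a1* at 0.82 and *Pdgfra* at 0.44. The rest of the macrophage list were *Lyz2* at 0.77, *Mrc1* at 0.18 and *Cd163* at -0.21. The rest of the fibroblast list were *Lum* at 0.75, *Dpt* at 0.30 and *Dcn* at 0.02. T cell genes had a median of -0.12 (0.0776 without Control muscle 4) and 0 calls by edgeR and DESeq2, with 0 at an unadjusted p under 0.05 (*Cd4* at 0.74, *Cd8a* at -0.55, *Cd3e* at -0.24). Of 5 endothelial genes 1 fell, *Tek* by 0.41 on the log2 scale (adjusted p = 0.0186 by edgeR), beside *Kdr* at -0.25 and *Cdh5* at -0.18, and of 4 tenocyte genes *Scx* (0.59) and *Thbs4* (0.78) rose. In fits leaving out 1 muscle *Thbs4* kept its call without Control muscle 4 or 6 or *FRAIL1* muscle 2 or 3 only. The 3 tested adipocyte genes had a median of -0.90, 0 calls by edgeR and DESeq2 and 1 unadjusted p under 0.05. Without Control muscle 5 that median was -0.28, and *Cidec* went from -0.93 to -0.28, *Plin1* from -0.90 to -0.39 and *Adipoq* from -0.58 to -0.20. Of 5 genes of mature fibers all had a log2 fold change below 0 and 1, *Ckm*, fell by 0.38 on the log2 scale (adjusted p = 0.0482 by edgeR), with *Myh4* at -0.43 and *Tnnt3* at -0.24. The call of *Ckm* was kept without *FRAIL1* muscle 2, 3 or 5 only. The scale of CPM is relative, and these mRNAs held 101413 to 123507 CPM of each Control and 71904 to 106084 CPM of each *FRAIL1* muscle. With the block *Adgre1*, *Csf1r*, *Cd4*, *Kdr* and *Myh4* were past the threshold, at adjusted p-values of 0.0210, 0.0443, 0.0127, 0.0264 and 0.0328 by edgeR. Without *FRAIL1* muscle 3 so were *Adgre1*, *Cd68*, *Csf1r*, *Col1a1*, *Col3a1*, *Pdgfra*, *Kdr*, *Myh4* and *Tnnt3*. *Adgre1*, *Col1a1* and *Myh4* were also called without *FRAIL1* muscle 2, and *Col1a1* (0.68) and *Myh4* (-0.34) without *FRAIL1* muscle 5. Over all genes the block gave calls for 14.1%. The fit without *FRAIL1* muscle 3 called 2110 of 15607 genes, that without *FRAIL1* muscle 2 called 1579 of 15559 and that without *FRAIL1* muscle 5 called 969 of 15590.

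**Figure D5:**
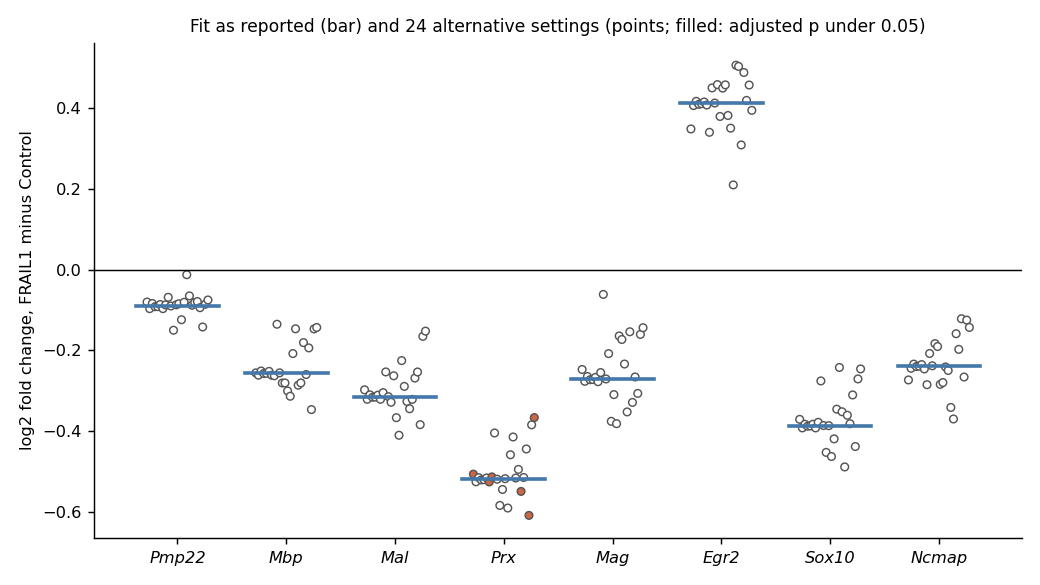
Log2 fold change of each member (y axis) in the fit as reported (bar) and under 24 other settings (points, filled where the adjusted p was under 0.05). Each gene stays on its side of 0, and 6 points of *Prx* are filled.

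Across 24 other settings of the analysis each of the 8 genes kept the sign of its log2 fold change. *Prx* lay between -0.61 and -0.37 and was called in 6 of the 24, with adjusted p-values from 0.0033 to 0.159. The other 7 genes were called in 0 of 24. Without *FRAIL1* muscle 5 the log2 fold change was -0.09 for *Pmp22*, -0.19 for *Mbp*, -0.25 for *Mal*, -0.44 for *Prx*, -0.27 for *Mag*, -0.31 for *Sox10*, -0.12 for *Ncmap* and 0.49 for *Egr2*. The median of the set was -0.22 without *FRAIL1* muscle 5 and -0.15 without both muscles numbered 5, and with 1 muscle left out at a time it lay between -0.35 and -0.17.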

How the data were processed

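Whole-muscle poly(A) RNA of 6 Control and 6 *FRAIL1* TA muscles was sequenced as paired-end reads. The authors trimmed the reads with Trimmomatic, mapped them to mm10 with STAR 2.7.8a and deposited raw counts of uniquely mapped reads per gene, made with featureCounts 2.0.1, per the paper's methods and the submitters' processing notes. The strand setting is not given in the sources used here. Of 27179 Gene IDs 1904, with 0.280% of the counts, were not matched to a symbol and stayed in the fit.

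Counts were filtered with filterByExpr, scaled with TMM and compared with edgeR 4.0.16 (R 4.3.3) by its quasi-likelihood test with robust estimation, with the SE taken from the fold change and F statistic. Counting error and the spread between 6 muscles per group set the precision. Alternatives were the replicate block, RLE and upper-quartile scaling, TMM computed after the mitochondrial and the 20 most counted genes were set aside, the table unfiltered or restricted to genes with 10 counts or more in each muscle, DESeq2 1.42.0 with and without the block, limma 3.58.1 voom with quality weights, a fit that was not robust, each muscle left out, and both muscles numbered 5 left out. The fits were tested on simulated data.

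Muscles of the same number were paired as contralateral legs in the fits with a block and in the counts of mice. Their deviations from the group means correlated at 0.254, 0.162, 0.282, 0.263, 0.0547 and 0.185 for numbers 1 to 6, a mean of 0.200 against -0.0400 for different numbers. No libraries of the same group were copies of each other (lowest chi-square per degree of freedom 14.5). Libraries of different groups were not compared in this way.

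The members and lists were chosen with earlier results of these data known. From each list the called genes were named, or the 3 with the smallest p-values where fewer were called, plus *S100b*, *Pou3f1*, *Erbb3*, *Ngfr* and *Jun*; other genes named were chosen after their values were seen. Some genes of this rule are not reported here. Likeness was Pearson's r of log2 CPM (prior count 2) minus the group mean. Promoter windows were the 250 bases before each RefSeq transcript start, cut where the gene begins in RefSeq.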

Additional observations from a re-analysis of the deposited data

Results flagged for a closer look

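In 140 groups of 6 muscles (70 named genes in 2 groups), 13 held a muscle whose gap to the nearest of the others exceeded Dixon's 95% limit for its range, where chance gives about 1 in 20. None of the 8 myelin genes was among them. *FRAIL1* muscle 5 was the highest in 8 of the 13: *Matn2* (12.6 CPM, next 7.82), *Myog* (64.1, next 31.96), *Col1a1* (1969, next 934), *Pdgfra* (29.95, next 21.3), *Col3a1* (2531, next 1173), *Myh3* (541, next 216), *Myh8* (876, next 390) and *Pax7* (4.56, next 3.56). *Prph*, an axonal intermediate filament gene, reached 1.96 CPM in *FRAIL1* muscle 6 (next 1.07). Among Control muscles the high values were *Jun* in muscle 1 (175 CPM, next 132), *Gdnf* in muscle 3 (2.01, next 1.22), *Cidec* in muscle 5 (4.40, next 1.54) and *Cldn1* in muscle 6 (3.12, next 2.11).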

How the results depend on the processing

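The number of all genes called was 974 as reported, 2186 with the replicate block, 2232 with DESeq2, 2898 with DESeq2 and the block, 1756 with limma voom, 2305 with both muscles numbered 5 left out and the block, and 364 to 2110 when 1 muscle was left out. The fit without *FRAIL1* muscle 1 gave the 364 and that without *FRAIL1* muscle 3 the 2110. Of the 8 myelin genes 0 were called as reported and 1, *Prx*, with the block, with DESeq2 with and without the block, and with both muscles numbered 5 left out and the block, and 0 to 1 when 1 muscle was left out. Of the genes in the other lists 15 were called as reported, 32 with the block, 37 with DESeq2, 44 with DESeq2 and the block, 24 with limma voom, 31 with both muscles numbered 5 left out and the block, and 11 to 34 when 1 muscle was left out.

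Over single named genes and settings, 1492 values kept their direction and side of the threshold, 124 gained a call, 42 lost one and 19 changed sign. The sign changes were all of log2 fold changes near 0. *S100b* became 0.0204 with limma voom, 0.0356 without both muscles numbered 5 and 0.0094 with the block added, and lay between -0.27 and 0.0667 when 1 muscle was left out (above 0 without Control muscle 2 or 6 or *FRAIL1* muscle 2 or 3). *Mog* became -0.0802 with limma voom, -0.11 without both muscles numbered 5 and -0.17 with the block added, and lay between -0.0741 and 0.31 (below 0 without Control muscle 4 or 5 or *FRAIL1* muscle 1 or 2). *Pou3f1* lay between -0.13 and 0.21 when 1 muscle was left out (below 0 without Control muscle 3 or 4 or *FRAIL1* muscle 4 or 6), and *Jun* between -0.0902 and 0.0639 (above 0 without Control muscle 1). The cause was not tested. *Ncmap* and *Mag* had the fewest reads of the 8 genes, at most 43 and 116 per muscle, and their counting error was not set apart from the spread between muscles.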
